A study of Mus musculus with 12 samples.

Results

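Collagens are the main structural proteins of the extracellular matrix, and each collagen protein is built from chains that are encoded by separate genes. The chain genes described here are the protein-coding mouse genes whose symbol is Col, a type number, the letter a and a chain number. This rule on names took 44 of the 43629 gene identifiers in the count tables, and it used no expression value. By the kind of assembly their chains form, 11 of the genes are fibrillar, 9 are FACIT (fibril-associated collagens with interrupted triple helices), 6 are type IV chains of basement membranes, 6 are type VI chains of beaded filaments, and 12 belong to none of these classes.

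RNA was sequenced from 4 groups of C57BL/6 mouse cells with 3 libraries each, in a study of the turning of fibroblasts into heart muscle cells. The groups labelled AGHMT and GHMT were mouse embryonic fibroblasts collected 3 weeks after Gata4, Hand2, Mef2c and Tbx5, with Akt added in AGHMT, and both were sorted on the αMHC-GFP reporter, which lights up in cells that use the promoter of the cardiac myosin heavy chain. The group CM held isolated ventricular cardiomyocytes of adult mice, and the group E held the fibroblasts 3 weeks after an empty vector. The labels of CM and E name no sort, so the sort and the factors cannot be told apart in any comparison of the sorted groups with E, nor can age and cell type be told apart in CM against E. No label says whether replicates were separate cultures or animals, so each p-value measures only the spread between these libraries. In bulk RNA, fewer cells of a type and less RNA per cell cannot be told apart.

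The libraries differed in ways that touch the collagen genes. Gene reads per library numbered 14386407 to 18493989 in AGHMT, 1872558 to 2200815 in GHMT, 5120230 to 15952646 in CM and 15971154 to 33552138 in E, and 3 reads pooled over a group stood for 0.725 CPM in GHMT but 0.0246 CPM in E. Levels are scaled read counts (CPM) after scaling by the trimmed mean of M values. The Akt1 counts did not set AGHMT apart from GHMT, at 13 ± 6.22 CPM in AGHMT, 9.53 ± 7.12 in GHMT, 48.7 ± 48.2 in CM and 62.9 ± 41.3 in E (SD, n = 3 each). AGHMT against GHMT did not pass for Akt1 (0.34 on the log2 scale, adjusted p = 0.786), so these libraries are called AGHMT-labelled below. The labels do not give the form of Akt that was added, nor whether its transcript would be counted as mouse Akt1. Gata4, Tbx5 and Mef2c were higher than E in both sorted groups, by 5.05, 4.47 and 3.45 in AGHMT and 4.86, 5.20 and 3.85 in GHMT, while Hand2 did not pass at 1.36 and 1.25. GHMT 1 stood apart from its group in scaling factor and in the share of the mitochondrial gene mt-Nd6, at 43.1% of its gene reads. That share was 14% in GHMT 3 and 3.34% in GHMT 2, and at most 2.55% in the libraries of the other groups. CM 3 stood apart in the GC content of its reads, at 50%. E 1 was the deepest library, with a read GC of 48.5% against 47.4 and 46% in E 2 and E 3. Summed markers of cardiomyocytes were 3597 to 4045 CPM in AGHMT, 653 to 1160 in GHMT, 21275 to 44472 in CM and 6.52 to 12.9 in E, and those of fibroblasts were 3312 to 3869, 2476 to 3620, 468 to 758 and 5884 to 6336 CPM in the same order. The fibroblast markers did not move together. Postn averaged 891 CPM in AGHMT, 259 in GHMT, 81.1 in CM and 4396 in E, and S100a4 averaged 22.4, 16.4, 5.16 and 808 CPM, whereas Dcn averaged 1340, 1710, 368 and 261 CPM and Lum 1202, 934, 100 and 78.3 CPM in that order. Endothelial markers summed to 61.8 to 72 CPM in AGHMT, 2.62 to 11.5 in GHMT, 473 to 610 in CM and 8.01 to 9.53 in E, and macrophage markers to 31.2 to 45.3, 1.31 to 6.19, 75.7 to 116 and 11.2 to 36.5 CPM. Smooth muscle and pericyte markers summed to 601 to 709, 274 to 447, 804 to 1316 and 593 to 3621 CPM in the same order. Mitochondrially encoded genes took 36.6 to 42.7% of gene reads in AGHMT, 27.8 to 72.2% in GHMT and 40 to 59.9% in CM, against 3.6 to 7.4% in E, and the part of this share in the results was not tested.

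Fibrillar chains of types I, III and V make the tensile fibrils of connective tissue, and in the heart they come mainly from fibroblasts. FACIT chains sit on the surface of those fibrils. Type IV chains form the sheet of the basement membrane that surrounds each heart muscle cell and underlies epithelia and vessels, and they come as a common network of the a1 and a2 chains and as rarer networks of the a3, a4 and a5 or of the a5 and a6 chains. Type VI chains form beaded filaments next to that sheet.

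Collagen transcripts took a smaller share of the RNA in the sorted cells than in E, and the smallest share in CM. Reads of all 44 genes made up 1.39 ± 0.146% of nuclear gene reads in AGHMT-labelled libraries, 0.886 ± 0.185% in GHMT, 0.266 ± 0.126% in CM and 2.97 ± 0.367% in E (SD, n = 3 each). Every E library stood above every library of the other groups. The CM range of 0.187 to 0.411% rests at its top on CM 3 alone. The summed level was 8341 ± 675 CPM in AGHMT-labelled libraries, 6708 ± 1241 in GHMT, 1421 ± 650 in CM and 15606 ± 2117 in E. These sums carry no test, since the members were chosen with earlier results of these data known. An exact permutation test of 3 against 3 libraries could also not go below p = 0.1.

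The make-up of the collagen reads differed as well. Type IV chains took 9.76 ± 1.22% of collagen reads in AGHMT-labelled libraries, 25.3 ± 7.64% in GHMT, 34.7 ± 12.9% in CM and 3.98 ± 1.57% in E. FACIT chains took 4.97 ± 0.75%, 9.03 ± 2.11% and 2.62 ± 1.05% in AGHMT-labelled, GHMT and CM libraries, against 22.9 ± 4.55% in E. Fibrillar chains were the largest class in all libraries but CM 3, with 79 ± 2.14% in AGHMT-labelled libraries, 59.7 ± 10.3% in GHMT, 46.7 ± 13.1% in CM and 62.2 ± 0.929% in E. In CM 3, type IV chains took 49.5% and fibrillar chains 32% of collagen reads.

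**Figure D1:**
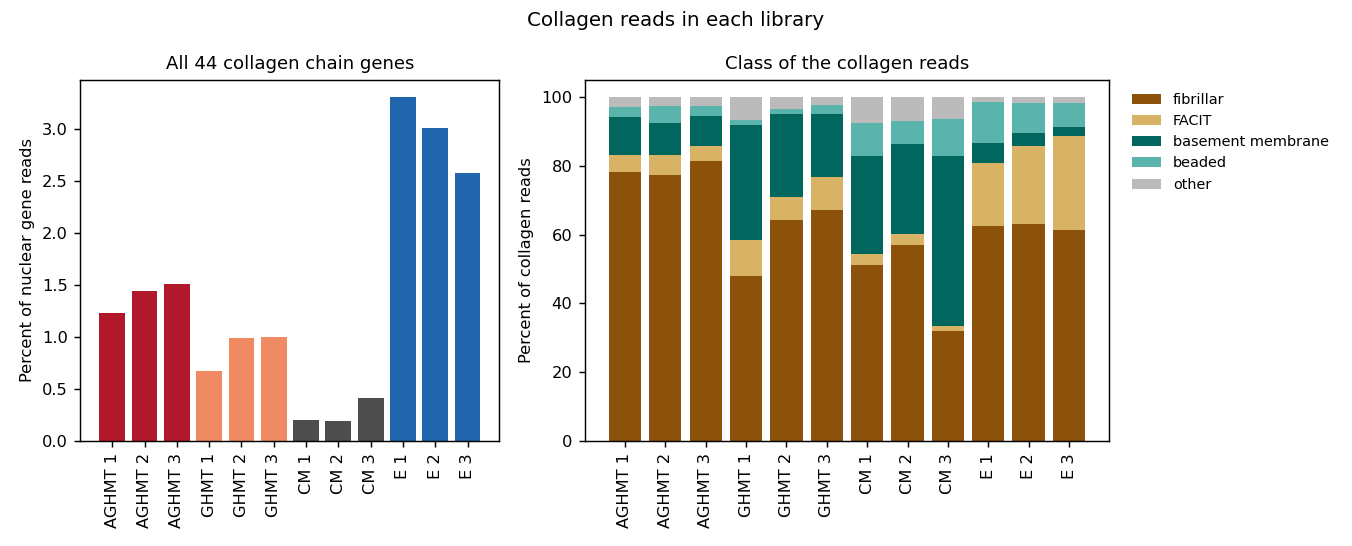
Left, the percent of nuclear gene reads that fell in the 44 collagen chain genes, 1 bar per library; right, the percent of those collagen reads in each class. The E bars are the tallest at left, at 2.58 to 3.31%, and the type IV (basement membrane) block at right is widest in GHMT and CM.

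Of the 44 genes, 35 passed the filter on low counts. Each was tested by the quasi-likelihood method of edgeR, its p-values adjusted after Benjamini and Hochberg over 15059 genes, and a gene is called at an adjusted p under 0.05. In AGHMT-labelled cells against E, 9 collagen chain genes were higher and 13 lower, or 62.9% of those tested, beside 46.5% of all genes (21.9% higher and 24.6% lower). In GHMT against E, 7 were higher and 18 lower, or 71.4%, beside 52.6% of all genes (19.8% higher and 32.9% lower). In CM against E, 5 were higher and 19 lower, or 68.6%, beside 42% of all genes (19.5% higher and 22.5% lower). The median log2 fold change of the tested chain genes was -0.30 in AGHMT-labelled cells, -1.52 in GHMT and -1.84 in CM, beside -0.16, -0.87 and -0.25 over all genes. With genes unread in a group placed at their bound, the medians of the chain genes were -0.30, -0.96 and -1.78. A gene that passed the filter only through the group in which it was high had to differ, so these counts describe the tested genes and lend no weight to a direction.

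The split between higher and lower calls moved with the scaling and with GC content. Total counts in place of the trimmed mean gave 7 higher and 16 lower in AGHMT-labelled cells and 4 higher and 24 lower in GHMT against E, and they moved the median of all genes to -0.95 and -2.05. A correction for the GC content of each gene gave 16 higher and 9 lower in AGHMT-labelled cells and 16 higher and 5 lower in GHMT, with medians of all genes of -0.05 and 0.24. Calls that held their direction and side of the threshold in every alternative that could be fitted are named as stable below. They were 6 of the 9 higher and 8 of the 13 lower in AGHMT-labelled cells, 4 of 7 and 5 of 18 in GHMT, and 5 of 5 and 12 of 19 in CM.

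**Figure D2:**
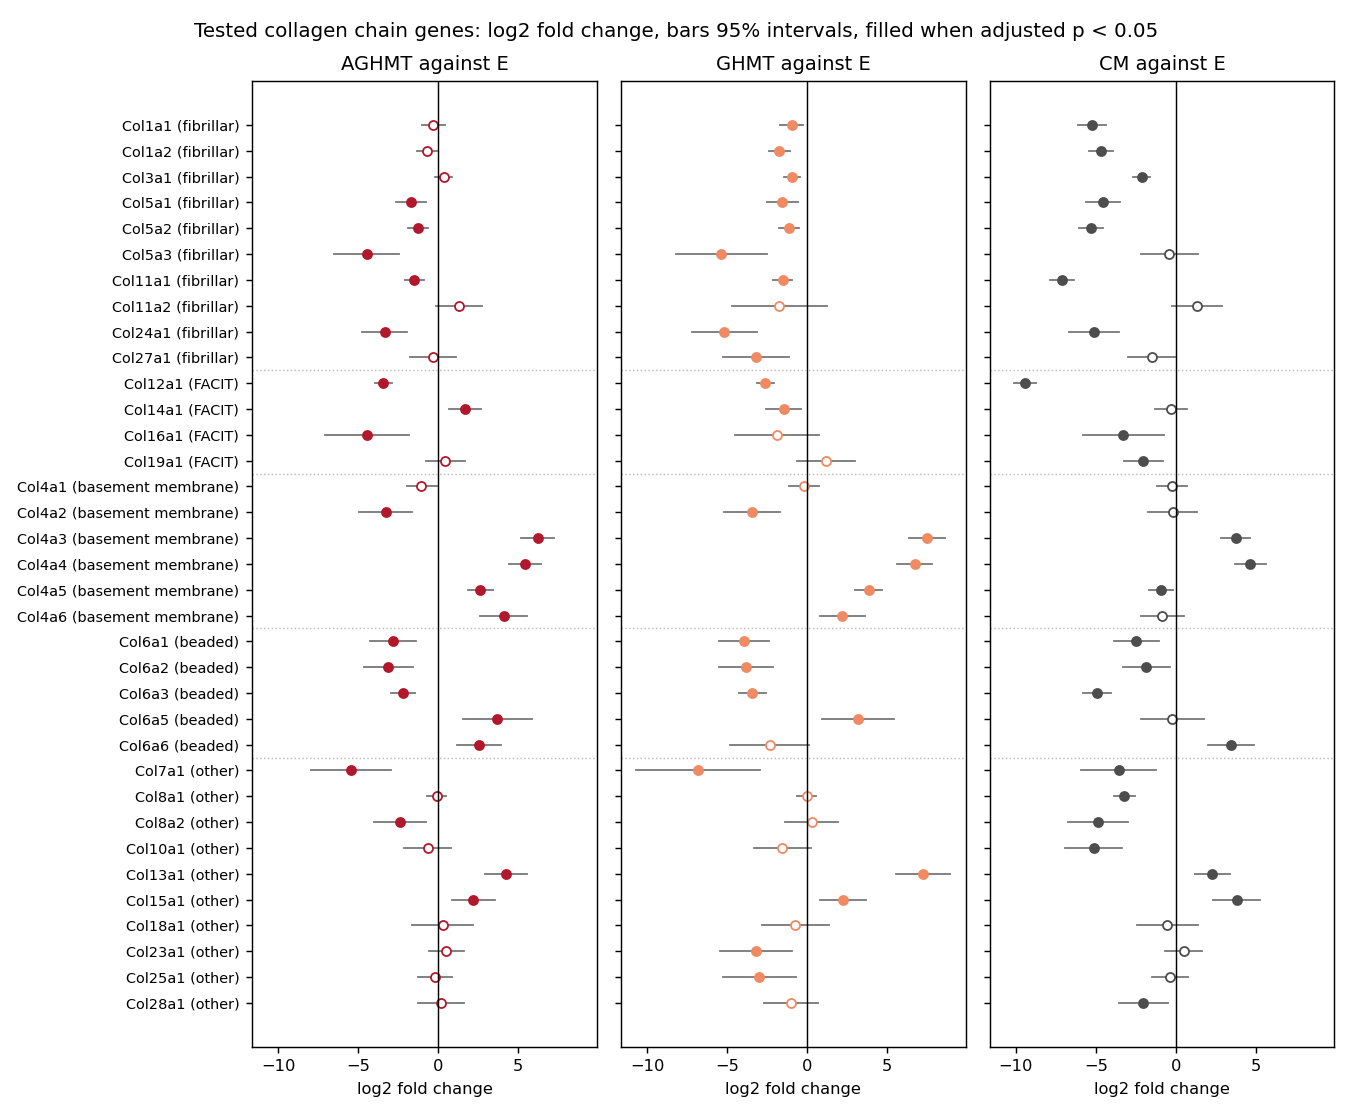
Log2 fold change of the 35 tested chain genes against E (points) with 95% intervals (bars), filled where the adjusted p is under 0.05, by class from top to bottom. Col4a3 and Col4a4 lie right of 0 in all 3 panels, and Col12a1 and Col6a3 left of 0 in all 3.

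The type IV genes changed their mix. In both sorted groups, 4 of the 6 rose against E (Col4a3, Col4a4, Col4a5 and Col4a6) and 1 fell (Col4a2), while Col4a1 did not pass. This is 4 of 6 called higher, beside 21.9% of all genes in AGHMT-labelled cells and 19.8% in GHMT. The 6 genes lie in head-to-head pairs. In the GENCODE M21 annotation of GRCm38, Col4a4 and Col4a3 lie 71 bases apart on chromosome 1, Col4a1 and Col4a2 overlap by 22 bases on chromosome 8, and Col4a6 and Col4a5 lie 1308 bases apart on chromosome X. The promoter windows found for these pairs are shown because the partners of each pair are described side by side below. No window was found for Col4a3. They are RefSeq sequences of GRCm38.p6, 300 bases each, read in the direction of the gene. Capitals mark CCAAT, the box bound by the factor NF-Y, and GGGCGG, the box bound by Sp1, on either strand (ATTGG and CCGCCC on the other).
The windows are chr8:11312777-11313076 on the minus strand for Col4a1, chr8:11312555-11312854 on the plus strand for Col4a2, chr1:82586800-82587099 on the minus strand for Col4a4, chrX:141474027-141474326 on the minus strand for Col4a6 and chrX:141475169-141475468 on the plus strand for Col4a5.
Col4a1: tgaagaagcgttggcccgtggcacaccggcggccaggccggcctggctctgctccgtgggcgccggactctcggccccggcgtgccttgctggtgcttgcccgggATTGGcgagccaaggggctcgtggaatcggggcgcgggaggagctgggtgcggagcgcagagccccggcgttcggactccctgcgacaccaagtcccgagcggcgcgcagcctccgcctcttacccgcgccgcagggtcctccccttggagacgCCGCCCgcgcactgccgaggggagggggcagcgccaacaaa
Col4a2: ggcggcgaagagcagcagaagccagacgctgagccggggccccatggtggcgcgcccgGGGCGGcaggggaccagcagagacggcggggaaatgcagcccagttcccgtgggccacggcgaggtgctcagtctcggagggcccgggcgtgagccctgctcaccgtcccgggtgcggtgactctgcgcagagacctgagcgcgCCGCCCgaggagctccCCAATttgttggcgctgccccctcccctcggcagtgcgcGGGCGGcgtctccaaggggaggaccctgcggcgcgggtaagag
Col4a4: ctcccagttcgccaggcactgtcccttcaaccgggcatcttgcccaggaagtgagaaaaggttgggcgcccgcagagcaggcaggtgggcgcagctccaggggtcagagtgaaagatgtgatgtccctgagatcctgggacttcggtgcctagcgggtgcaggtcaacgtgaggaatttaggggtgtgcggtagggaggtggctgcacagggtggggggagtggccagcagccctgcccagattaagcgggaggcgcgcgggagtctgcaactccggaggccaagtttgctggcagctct
Col4a6: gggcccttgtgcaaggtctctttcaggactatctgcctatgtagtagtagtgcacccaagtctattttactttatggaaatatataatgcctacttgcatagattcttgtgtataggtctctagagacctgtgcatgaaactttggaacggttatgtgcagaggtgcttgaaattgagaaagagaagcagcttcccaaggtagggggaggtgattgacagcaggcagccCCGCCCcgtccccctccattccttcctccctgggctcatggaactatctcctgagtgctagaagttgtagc
Col4a5: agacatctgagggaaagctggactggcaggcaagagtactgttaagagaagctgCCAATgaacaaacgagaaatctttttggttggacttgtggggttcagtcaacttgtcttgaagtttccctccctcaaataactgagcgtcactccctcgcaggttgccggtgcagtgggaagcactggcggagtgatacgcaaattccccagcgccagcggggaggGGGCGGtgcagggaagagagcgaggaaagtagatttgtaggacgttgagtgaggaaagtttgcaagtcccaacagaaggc

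The Col4a1 and Col4a2 windows share 78 bases and each hold 1 CCAAT box and at least 1 GGGCGG box. The only GGGCGG box of the Col4a1 window lies in the shared bases, so the same box is also read in the Col4a2 window. The Col4a4 window holds neither CCAAT nor GGGCGG. Searched on both strands, with overlapping matches allowed, CCAAT was present in 13 of the 38 windows found for 35 collagen chain genes, beside 37.4% of 32851 windows of all genes. GGGCGG was present in 23 of the 38, beside 35.7%, and TATAAA in 5 of the 38, beside 13.6%. These matches describe letters in the windows and show no binding.

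Col4a3 encodes a chain of the network known from the kidney glomerulus, the lung and the cochlea. It had 42, 43.3 and 46.2 CPM in the AGHMT-labelled libraries and 114, 82.3 and 124 CPM in GHMT, against 7.58, 7.85 and 7.56 CPM in CM and 0.251, 0.304 and 0.856 CPM in E. All sorted libraries stood above all CM libraries, and those above all E libraries. The log2 fold change against E was 6.25 (SE 0.49, adjusted p = 2.82e-07) in AGHMT-labelled cells, 7.52 (SE 0.52, adjusted p = 9.41e-08) in GHMT and 3.75 (SE 0.43, adjusted p = 7.47e-06) in CM by edgeR's test. The E values rest on 52 reads over 3 libraries.

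Col4a4 encodes the partner chain that is transcribed away from Col4a3. It had 26.3, 22.5 and 28.4 CPM in the AGHMT-labelled libraries and 30.1, 82.3 and 74.9 CPM in GHMT, against 12.9, 18.5 and 13.1 CPM in CM and 0.569, 0.406 and 0.428 CPM in E. As for Col4a3, no sorted library overlapped with CM or E. Against E it rose by 5.46 in AGHMT-labelled cells (SE 0.48, adjusted p = 8.95e-07), 6.75 in GHMT (SE 0.51, adjusted p = 2.50e-07) and 4.67 in CM (SE 0.46, adjusted p = 1.51e-06) on the log2 scale in edgeR's test. Alone among the pairs of groups, AGHMT-labelled cells against CM did not pass for this gene (0.79, adjusted p = 0.121).

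Col4a5 encodes the chain that enters both of the rarer networks. It had 552, 407 and 481 CPM in the AGHMT-labelled libraries and 1325, 1364 and 704 CPM in GHMT, against 32.4, 38.2 and 50.8 CPM in CM and 116, 67 and 47.7 CPM in E. Sorted libraries lay above all libraries of CM and E, which overlapped with each other. The rise against E was 2.64 in AGHMT-labelled cells (SE 0.37, adjusted p = 9.14e-05) and 3.88 in GHMT (SE 0.39, adjusted p = 4.46e-06) on the log2 scale in edgeR's test. In CM it stood at -0.92 against E (adjusted p = 0.0486), a call that was lost under 19 alternatives, without CM 1 or CM 2 and without E 1 or E 2 among them.

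Col4a6 encodes the chain paired with Col4a5 in smooth muscle and some epithelia. It had 77.5, 65.5 and 57 CPM in the AGHMT-labelled libraries and 6.55, 3.65 and 42.6 CPM in GHMT, against 2.38, 2.01 and 1.72 CPM in CM and 5.32, 3.38 and 2.6 CPM in E. AGHMT-labelled libraries stood above all others, whereas in GHMT replicate 3 was far above E, replicate 1 just above it and replicate 2 within its range. The log2 fold change against E was 4.10 (SE 0.70, adjusted p = 4.11e-04) in AGHMT-labelled cells and 2.21 (SE 0.67, adjusted p = 0.013) in GHMT by edgeR's test, and without GHMT 3 the GHMT value was 0.30 (adjusted p = 0.855).

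Col4a1 and Col4a2 encode the chains of the common network and are named here after their values were seen. Col4a1 had 153, 208 and 160 CPM in the AGHMT-labelled libraries and 320, 361 and 271 CPM in GHMT, against 182, 154 and 568 CPM in CM and 510, 327 and 232 CPM in E. Its groups overlapped except that AGHMT-labelled libraries lay below E and below GHMT, and it was called in no comparison with E (AGHMT-labelled -1.04, adjusted p = 0.0645; GHMT -0.17, adjusted p = 0.763; CM -0.24, adjusted p = 0.684). After the GC correction it stood above E, by 0.70 (adjusted p = 0.0286) in AGHMT-labelled cells and 2.92 (adjusted p = 9.33e-07) in GHMT. Without CM 3, Col4a1 was called lower than E in AGHMT-labelled cells (-1.03, adjusted p = 0.00874) and in CM (-1.08, adjusted p = 0.0176). Col4a2 had 17.1, 26.2 and 19.3 CPM in the AGHMT-labelled libraries and 6.55, 28.1 and 18.6 CPM in GHMT, against 67.2, 46.5 and 432 CPM in CM and 391, 141 and 82.1 CPM in E. All 6 sorted libraries lay below all 6 of CM and E, and CM 3 and E 1 were far above their groups. Col4a2 fell in AGHMT-labelled cells (-3.29, SE 0.79, adjusted p = 0.00429) and in GHMT (-3.45, SE 0.82, adjusted p = 0.00337) in edgeR's test, and the GHMT value was -0.21 (adjusted p = 0.582) after the GC correction. In CM it did not pass (-0.17, adjusted p = 0.869) but did without CM 3 (-1.84, adjusted p = 0.0228).

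**Figure D3:**
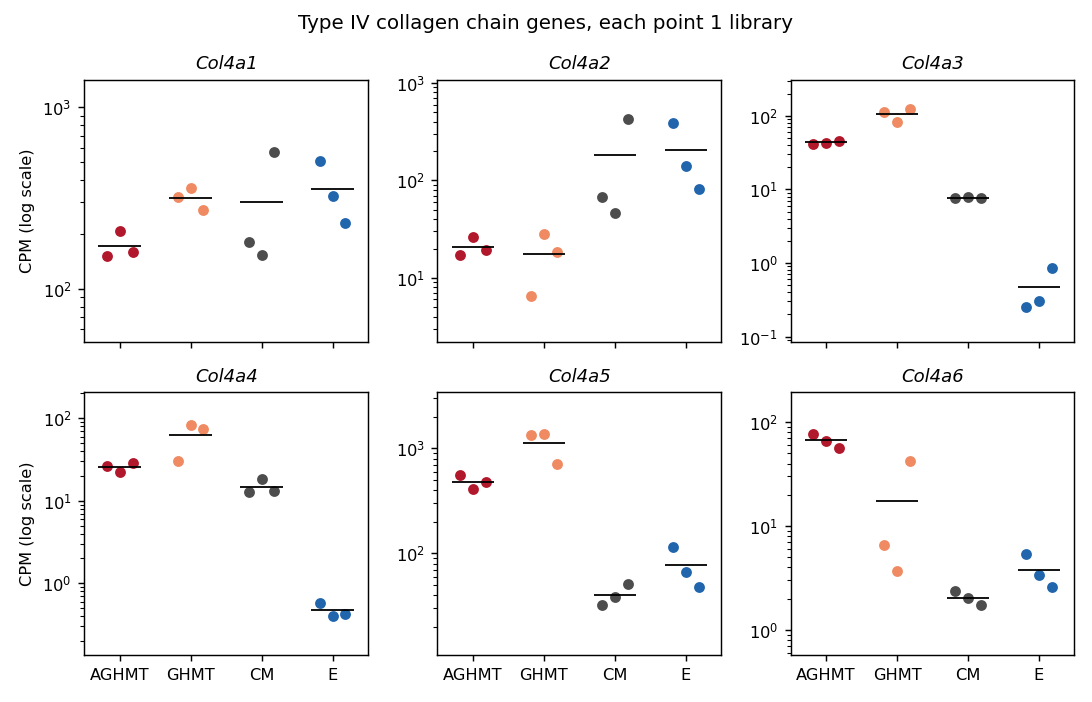
CPM on a log axis of the 6 type IV chain genes, each point 1 library and each line the mean of 3. Col4a3, Col4a4 and Col4a5 are high in AGHMT and GHMT, Col4a2 is low in both, and Col4a6 in GHMT is high in 1 library of 3.

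Levels per kilobase of exon allow the chains to be set against each other. Col4a3, Col4a4 and Col4a5 together made up 69 ± 5.6% of the summed per-kilobase type IV level in AGHMT-labelled libraries, 78.9 ± 4.71% in GHMT, 15.1 ± 8.25% in CM and 13.1 ± 1.11% in E. Most of it was Col4a5, at 71.4 CPM per kilobase in AGHMT-labelled libraries and 168 in GHMT, while Col4a3 stood at 4.40 and 10.7 and Col4a4 at 2.42 and 5.89 in the same groups. Per kilobase, Col4a1 exceeded Col4a2 by 7.05 to 7.91 times in AGHMT-labelled libraries and 11.4 to 43.3 times in GHMT, against 1.17 to 2.94 times in CM and 1.16 to 2.51 times in E. The Col4a2 transcript is richer in GC, at 60.6%, than that of Col4a1, at 57.7%. Epicardial and mesothelial markers were highest in the sorted groups, as were Col4a3, Col4a4 and Col4a5 but not Col4a1 or Col4a2. In CM these markers were above E, whereas Col4a5 was not. All 5 markers were read in AGHMT-labelled, CM and E libraries. They summed to 50.5 to 66.5 CPM in AGHMT-labelled libraries and 34.1 to 68.7 CPM in GHMT, against 20 to 29.4 CPM in CM and 11.1 to 17.8 CPM in E. Among these, Krt19 had no read in GHMT and 0.11 CPM in AGHMT-labelled libraries against 1.02 CPM in E, and the part of this cell type in the result was not tested.

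Fibrillar chain genes fell or did not pass against E, and the abundant ones among them stood lowest in CM. Of the 10 tested, 5 fell and 0 rose in AGHMT-labelled cells, 9 fell and 0 rose in GHMT, and 7 fell and 0 rose in CM. These are 50%, 90% and 70% of the class, beside 24.6%, 32.9% and 22.5% of all genes called lower and 46.5%, 52.6% and 42% called in either direction. No rise was counted either at an unadjusted p under 0.05 in edgeR or by DESeq2 or limma, with 0 of 10 in each of the 3 comparisons. The GC correction, however, did call rises against E in the sorted groups. Among them were Col1a1 in both groups and Col1a2, Col3a1, Col5a1 and Col5a2 in GHMT, with values given below. Of the 7 fibroblast markers, 5 were lower than E in AGHMT-labelled cells, 4 in GHMT and 5 in CM, while Dcn and Lum were higher in both sorted groups, as given above. Their part in the result was not tested.

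Col1a1 and Col1a2 encode the chains of type I collagen, the main fibril of scar and connective tissue. Col1a1 had 1315, 1680 and 2319 CPM in the AGHMT-labelled libraries and 602, 1486 and 1256 CPM in GHMT, against 50.2, 45.2 and 75.1 CPM in CM and 2439, 2385 and 1698 CPM in E. AGHMT-labelled libraries overlapped with E, GHMT libraries lay below it, and CM lay far below all others. The log2 fold change against E was -0.30 (SE 0.35, adjusted p = 0.50) in AGHMT-labelled cells, -0.96 (SE 0.35, adjusted p = 0.0315) in GHMT and -5.26 (SE 0.42, adjusted p = 1.82e-07) in CM by edgeR's test. The GHMT call was lost without GHMT 1 (-0.67, adjusted p = 0.118) or E 2 (-0.91, adjusted p = 0.0798), and after the GC correction Col1a1 stood above E by 1.93 in GHMT (adjusted p = 0.00123) and 1.47 in AGHMT-labelled cells (adjusted p = 0.00791).

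Col1a2 had 1788, 1536 and 1944 CPM in the AGHMT-labelled libraries and 501, 1085 and 1000 CPM in GHMT, against 101, 94.8 and 133 CPM in CM and 3398, 2846 and 2327 CPM in E. Each group lay below E without overlap. It fell in GHMT (-1.73, SE 0.31, adjusted p = 4.79e-04) and in CM (-4.70, SE 0.35, adjusted p = 1.06e-07) in edgeR's test, whereas AGHMT-labelled cells did not pass at -0.70 (SE 0.30, adjusted p = 0.0685). DESeq2 called that last difference (-1.05, adjusted p = 0.00403), within a range of 0.00403 to 0.307 over the alternatives, and the GC correction turned the GHMT value to 1.04 (adjusted p = 0.0125).

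Col3a1 encodes type III collagen, which forms thin fibrils with type I in stretchable tissue, and it is named after its values were seen. It had 1826, 1826 and 1902 CPM in the AGHMT-labelled libraries and 602, 828 and 899 CPM in GHMT, against 316, 361 and 336 CPM in CM and 1563, 1328 and 1512 CPM in E. AGHMT-labelled libraries were thus the highest of all 4 groups without overlap, yet the difference from E did not pass (0.34, SE 0.24, adjusted p = 0.255). Col3a1 was lower than E in GHMT (-0.92, SE 0.24, adjusted p = 0.0055) and in CM (-2.12, SE 0.25, adjusted p = 7.35e-06) in edgeR's test, and the GC correction turned the GHMT value to 1.46 (adjusted p = 6.12e-04). In CM it was the least lowered of the large fibrillar genes, and Col3a1 exceeded Col1a1 per kilobase by 2.99 to 5.34 times there, against 0.372 to 0.595 times in E.

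Col5a2 and Col5a1 encode chains of type V, which sets the width of type I fibrils, and Col11a1 encodes its relative of cartilage and embryonic tissue. Col5a2 had 829, 762 and 750 CPM in the AGHMT-labelled libraries and 478, 1175 and 928 CPM in GHMT, against 42.6, 53.2 and 45.3 CPM in CM and 2002, 1676 and 1897 CPM in E. Col11a1 had 145, 140 and 129 CPM in the AGHMT-labelled libraries and 161, 126 and 120 CPM in GHMT, against 3.27, 2.92 and 1.72 CPM in CM and 379, 344 and 437 CPM in E. Both were lower than E in every library of the other groups, and sorted libraries lay between CM and E. In edgeR's test Col5a2 fell in AGHMT-labelled cells (-1.25, adjusted p = 0.00425), GHMT (-1.11, adjusted p = 0.00684) and CM (-5.30, adjusted p = 3.38e-08), and its AGHMT call was lost without AGHMT 3 (-1.11, adjusted p = 0.0701). Col11a1 fell in AGHMT-labelled cells (-1.49, adjusted p = 7.63e-04), GHMT (-1.52, adjusted p = 5.63e-04) and CM (-7.10, adjusted p = 2.76e-09). After the GC correction the GHMT values were 0.55 (adjusted p = 0.0398) for Col5a2 and -0.11 (adjusted p = 0.798) for Col11a1. Col5a1, named after its values were seen, stood at -1.70, -1.53 and -4.55 in AGHMT-labelled cells, GHMT and CM against E, all called. Its AGHMT call was lost without E 1 (-1.31, adjusted p = 0.0654), and the GC correction turned the first 2 values to 0.11 (adjusted p = 0.747) and 1.56 (adjusted p = 1.30e-04).

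Among the low fibrillar genes, Col5a3 and Col24a1 fell stably in both sorted groups. Col5a3, a further type V chain, had 0.769, 0.44 and 0.382 CPM in the AGHMT-labelled libraries and 0, 0.521 and 0 CPM in GHMT, against 2.82, 2.52 and 27.3 CPM in CM and 27.1, 8.99 and 6.3 CPM in E. The sorted libraries lay below all others, and CM 3 alone stood at the level of E 1. Its log2 fold change in AGHMT-labelled cells was -4.48 (SE 0.95, adjusted p = 0.00204) in edgeR's test, and the single GHMT read gives 0.0141 times the E level (exact 95% interval 3.56e-04 to 0.0786, counting error only). In CM it did not pass (-0.39, adjusted p = 0.733) but did without CM 3 (-2.35, adjusted p = 0.0181). Col24a1, a fibrillar chain known from bone and cornea, fell in AGHMT-labelled cells (-3.33, adjusted p = 0.00128) and in CM (-5.13, adjusted p = 5.52e-05), and its single GHMT read gives 0.0183 times the E level (4.63e-04 to 0.102). Osteoblast markers summed to 8.91 to 12 CPM in AGHMT-labelled libraries, 13.1 to 21 in GHMT, 0.515 to 1.41 in CM and 33.2 to 42.6 in E. Of these 5 markers, 3 were read in AGHMT-labelled libraries and 1 in GHMT, and their part was not tested.

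**Figure D4:**
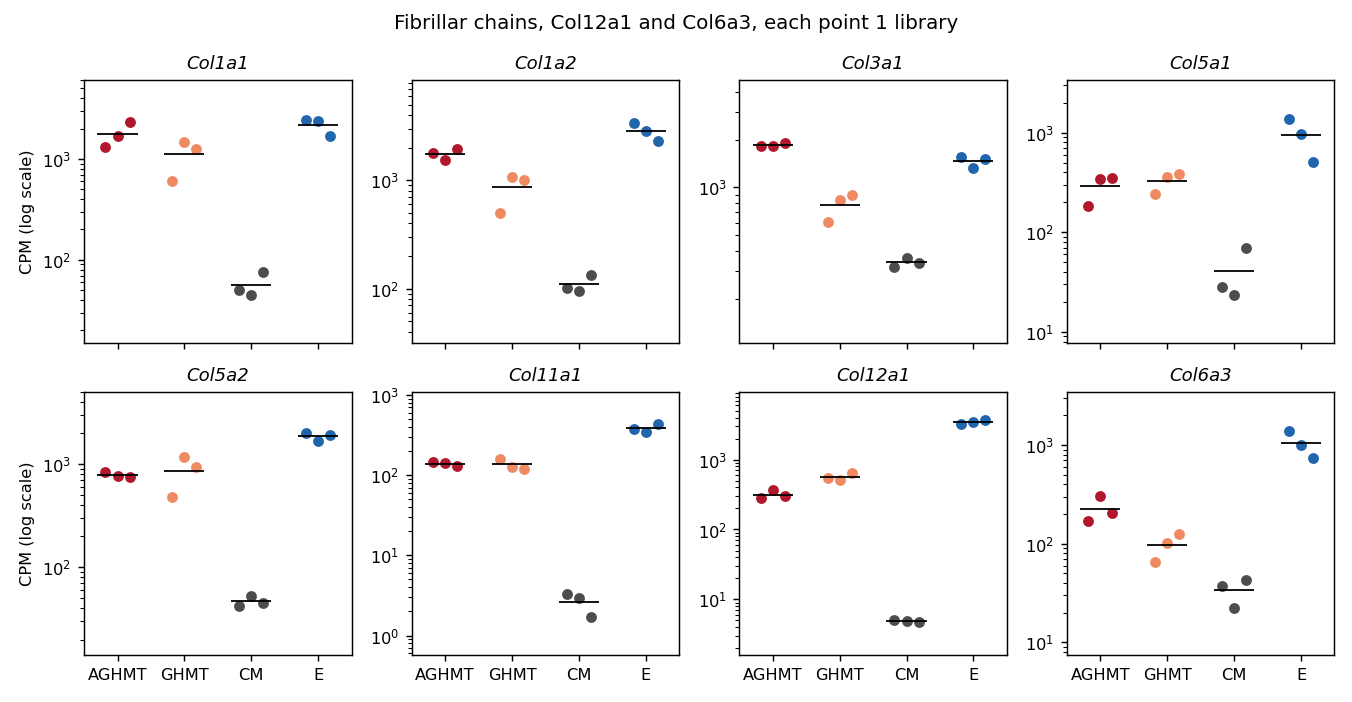
CPM on a log axis of 6 fibrillar chain genes, Col12a1 and Col6a3, each point 1 library and each line the mean of 3. CM lies lowest in all 8 panels, and AGHMT and GHMT lie between CM and E in 6 of them; Col1a1 and Col3a1 in AGHMT overlap with E or lie above it.

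The FACIT class was dominated by 1 gene. Col12a1 encodes a collagen that bridges fibrils in tendon and in healing tissue. It had 287, 364 and 299 CPM in the AGHMT-labelled libraries and 543, 513 and 652 CPM in GHMT, against 5.05, 4.83 and 4.81 CPM in CM and 3192, 3436 and 3736 CPM in E. The groups did not overlap, and within each the libraries differed little. In edgeR's test Col12a1 fell stably in AGHMT-labelled cells (log2 fold change -3.45, SE 0.25, adjusted p = 1.46e-07) and in GHMT (-2.60, SE 0.24, adjusted p = 1.89e-06). In E it was the chain gene with the most reads, 414648 over 3 libraries.

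Col14a1 encodes a FACIT chain that decorates mature type I fibrils, and it set the sorted groups apart. It had 80.5, 106 and 93.6 CPM in the AGHMT-labelled libraries and 1.31, 8.86 and 19.2 CPM in GHMT, against 27.9, 27.1 and 16.8 CPM in CM and 36.2, 27.2 and 23.2 CPM in E. AGHMT-labelled libraries were above all others, and GHMT libraries were below all E libraries. Against E the log2 fold change was 1.69 (SE 0.48, adjusted p = 0.011) in AGHMT-labelled cells and -1.46 (SE 0.52, adjusted p = 0.0288) in GHMT by edgeR's test, with 0.87 (adjusted p = 0.259) for AGHMT-labelled cells on total counts. The GHMT call was lost without GHMT 2 (-1.33, adjusted p = 0.0919) or E 2 (-1.52, adjusted p = 0.0509), and the value was 0.18 (adjusted p = 0.766) after the GC correction. Col16a1, a FACIT chain of several connective tissues, had 0.538, 1.38 and 1.75 CPM in the AGHMT-labelled libraries and 27.5, 0.521 and 0 CPM in GHMT, against 0.817, 1.01 and 7.39 CPM in CM and 55.8, 15.8 and 16.4 CPM in E. GHMT 1 alone was at the level of E, and the log2 fold change was -4.45 (adjusted p = 0.00982) in AGHMT-labelled cells and -1.87 (adjusted p = 0.202) in GHMT, or -6.20 (adjusted p = 0.00452) without GHMT 1. The AGHMT call was lost without AGHMT 1 (-4.13, adjusted p = 0.0532). Col19a1, a rare FACIT chain, was under 1 CPM in all libraries but GHMT 3, at 2.75 CPM, and had no read in CM, which places it at least 3.43-fold lower there than in E.

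In the type VI class, the chains of the common filament fell and the rarer a5 and a6 chains did not follow them. Col6a3, which encodes the long chain of the filament, had 171, 306 and 204 CPM in the AGHMT-labelled libraries and 65.5, 102 and 124 CPM in GHMT, against 37.2, 22.4 and 43.3 CPM in CM and 1383, 998 and 745 CPM in E. E stood above all other libraries, and CM below them. The fall against E was stable in edgeR's test, with log2 fold changes of -2.20 in AGHMT-labelled cells (SE 0.36, adjusted p = 3.25e-04), -3.41 in GHMT (SE 0.38, adjusted p = 1.12e-05) and -4.92 in CM (SE 0.41, adjusted p = 3.21e-07). Col6a1 and Col6a2, which encode the short chains, averaged 39.9 and 17.3 CPM in AGHMT-labelled libraries, 18 and 10.5 CPM in GHMT, 51.8 and 42.1 CPM in CM and 288 and 150 CPM in E. In AGHMT-labelled cells, Col6a1 stood at -2.85 (adjusted p = 0.00407) and Col6a2 at -3.11 (adjusted p = 0.00368) against E. In GHMT they stood at -3.95 (adjusted p = 6.42e-04) and -3.80 (adjusted p = 0.00143), and neither GHMT call held after the GC correction (-0.93, adjusted p = 0.203, and -0.84, adjusted p = 0.173). The AGHMT call of Col6a1 was also lost under that correction (-1.15, adjusted p = 0.0833). In CM, Col6a1 and Col6a2 stood at -2.47 (adjusted p = 0.00743) and -1.84 (adjusted p = 0.0437), and Col6a2 lost its CM call without CM 1 (-1.43, adjusted p = 0.156), CM 2 (-1.40, adjusted p = 0.129), E 1 (-1.15, adjusted p = 0.248) or E 2 (adjusted p = 0.0595).

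Col6a6 and Col6a5 encode long chains that can stand in for that of Col6a3. Col6a6 had 1.69, 4.18 and 4.25 CPM in the AGHMT-labelled libraries and no read in GHMT, against 6.32, 5.03 and 7.9 CPM in CM and 0.853, 0.304 and 0.245 CPM in E. It was higher than E in AGHMT-labelled cells (2.56, SE 0.63, adjusted p = 0.00595) and in CM (3.46, SE 0.66, adjusted p = 9.31e-04) in edgeR's test, and both calls were stable. The E mean lay under the level that 3 pooled reads stand for in GHMT, so a difference of GHMT from E was not detectable at this depth. Col6a5, named after its values were seen, had 5.15, 6.99 and 5.13 CPM in the AGHMT-labelled libraries and 0, 0 and 11.7 CPM in GHMT, against 0.52, 0.201 and 0 CPM in CM and 0.602, 0.237 and 0.153 CPM in E. Col6a5 passed the filter on low counts only through AGHMT-labelled libraries, where it was high, so its rise there lends no weight to a direction. It rose in AGHMT-labelled cells (3.69, SE 1.01, adjusted p = 0.00912), a call lost with limma on the deposited values (adjusted p = 0.0851), and the GHMT value of 3.21 (adjusted p = 0.02) turned to -2.04 (adjusted p = 0.277) without GHMT 3. That GHMT call was also lost without E 2 (adjusted p = 0.0671) or E 3 (adjusted p = 0.0539).

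Of the 12 remaining genes, 10 were tested. Col8a1 encodes a short-chain collagen of vessel walls and of the membrane under the corneal endothelium. It had 187, 165 and 183 CPM in the AGHMT-labelled libraries and 237, 211 and 119 CPM in GHMT, against 19, 24.2 and 17.7 CPM in CM and 196, 196 and 179 CPM in E. Sorted cells overlapped with E, and CM lay below all of them. Its log2 fold change was -0.10 in AGHMT-labelled cells (95% interval -0.70 to 0.51, adjusted p = 0.801), -0.01 in GHMT (-0.63 to 0.60, adjusted p = 0.975) and -3.22 in CM (adjusted p = 1.25e-06) in edgeR's test, with 1.12 (adjusted p = 0.0134) in GHMT after the GC correction and -1.49 (adjusted p = 0.00262) on total counts. Its partner chain Col8a2 averaged 1.84 ± 0.554 CPM in AGHMT-labelled libraries, 13.5 ± 15.6 in GHMT, 0.247 ± 0.129 in CM and 10.2 ± 6.13 in E. It was lower than E in AGHMT-labelled cells (-2.39, adjusted p = 0.0199) and in CM (-4.84, adjusted p = 4.34e-04). The AGHMT call was lost when any single AGHMT library was left out (adjusted p = 0.0565 to 0.0784) or without E 1 or E 2 (0.0844 and 0.0515). In all it was lost under 7 alternatives, with an adjusted p of up to 0.705 among them.

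Col13a1 encodes a membrane-spanning collagen known from the neuromuscular junction. It had 2.23, 2.59 and 2.34 CPM in the AGHMT-labelled libraries and 28.8, 24 and 8.25 CPM in GHMT, against 0.297, 0.201 and 1.2 CPM in CM and 0.0335, 0 and 0 CPM in E. All libraries of the other groups stood above all E libraries, which held 2 reads in all. Pooled reads were 147 times the E level in AGHMT-labelled cells (exact 95% interval 39.7 to 1225), 1180 times in GHMT (316 to 9914) and 27.2 times in CM (6.15 to 248), intervals that cover counting error only. All 3 rises passed stably in edgeR's test (adjusted p = 1.12e-04, 7.81e-06 and 0.00208).

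Col7a1 encodes the anchoring fibril of skin and is high in keratinocytes, whose markers summed to 1.27 to 2.56 CPM in AGHMT-labelled libraries, 0 in GHMT, 0.503 to 0.859 in CM and 0.275 to 0.401 in E. It had 0.154, 0.275 and 0.109 CPM in the AGHMT-labelled libraries and no read in GHMT, against 0.0743, 0.101 and 3.09 CPM in CM and 25.2, 6.12 and 7.34 CPM in E. E was above every other library. Col7a1 passed the filter on low counts only through E, where it was high, so its calls against E lend no weight to a direction. It fell stably in AGHMT-labelled cells (-5.45, SE 1.15, adjusted p = 0.00259) in edgeR's test, and, from reads pooled over each group, was at least 21.8-fold lower in GHMT than in E. E 1 held 1509 of the 1930 E reads, and without it the bound was 9.32-fold. In CM it stood at -3.57 (adjusted p = 0.0186), a call lost without CM 1 (-2.97, adjusted p = 0.0599), CM 2 (-3.04, adjusted p = 0.0545) or E 1 (-2.63, adjusted p = 0.083). Col10a1, the chain of hypertrophic cartilage, averaged 4.93 ± 0.676 CPM in AGHMT-labelled libraries, 3.14 ± 4.16 in GHMT and 7.78 ± 2.26 in E, while 3 reads in CM gave 0.0143 times the E level (exact 95% interval 0.00294 to 0.0419). Col15a1, a basement membrane-associated collagen of muscle and capillaries named after its values were seen, averaged 21.1 ± 6.89 CPM in AGHMT-labelled libraries, 23.2 ± 21.9 in GHMT, 64.9 ± 32.2 in CM and 4.46 ± 3 in E. It was higher than E in AGHMT-labelled cells (2.21, adjusted p = 0.0121), GHMT (2.26, adjusted p = 0.0119) and CM (3.82, adjusted p = 3.80e-04), and the GHMT call was lost without GHMT 1 (1.22, adjusted p = 0.108). On total counts the AGHMT value was 1.42 (adjusted p = 0.0841) and the GHMT value 0.52 (adjusted p = 0.507). In CM and AGHMT-labelled cells it moved with the endothelial markers given above. In GHMT it did not, as those markers summed to 2.62 to 11.5 CPM there, near the 8.01 to 9.53 CPM of E. The part of these markers was not tested.

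The remaining tested genes were low in most libraries. Col18a1, whose protein carries the endostatin fragment and sits in basement membranes, had 5.76, 8.64 and 11.9 CPM in the AGHMT-labelled libraries and 0, 6.25 and 5.5 CPM in GHMT, against 1.26, 1.31 and 12.9 CPM in CM and 13.8, 5.24 and 2.6 CPM in E. Its groups overlapped, and it passed in no comparison with E (adjusted p = 0.816, 0.543 and 0.672). Col28a1, a chain known from peripheral nerve, had 7.92, 9.25 and 9.38 CPM in the AGHMT-labelled libraries and 11.8, 0.521 and 1.37 CPM in GHMT, against 2.75, 1.51 and 1.03 CPM in CM and 7.94, 7.5 and 7.74 CPM in E. GHMT 1 alone of its group reached the level of E, and the GHMT value did not pass (adjusted p = 0.298) but was -2.95 (adjusted p = 0.00475) without it. Schwann cell markers summed to 5.45 to 6.43 CPM in AGHMT-labelled libraries, 0 to 8.86 in GHMT, 5.5 to 8.69 in CM and 4.59 to 11.9 in E. Both genes are named after their values were seen.

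Calls between AGHMT-labelled and GHMT cells depended on the processing. In AGHMT-labelled cells against GHMT, 6 genes were higher and 6 lower, or 34.3% of those tested, beside 17.8% of all genes (13.2% higher and 4.58% lower). The split was 9 and 0 on total counts, 9 and 2 without mitochondrially encoded genes, and 2 and 13 after the GC correction, and these settings moved the median of all genes to 0.97, 0.87 and -0.45 beside 0.57. There were 15 calls with limma and 13 with DESeq2, but 3 without AGHMT 2, 5 without AGHMT 1 and 7 when E 2 was left out. The stable calls were Col14a1, over 26 alternatives, and Col6a6, over 25. Col6a6 was too low to be tested after thinning to 1 depth. Col14a1 was higher in all 3 AGHMT-labelled libraries, by 3.15 on the log2 scale (SE 0.54, adjusted p = 0.00232) in edgeR's test, with adjusted p of at most 0.0261 over the alternatives. Col6a6, unread in GHMT, was at least 4.90-fold higher in AGHMT-labelled cells (adjusted p = 0.0151, at most 0.0451).

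The other calls between the sorted groups were less firm. Col3a1 (1.25, adjusted p = 0.004), Col1a2 (1.03, adjusted p = 0.0326) and Col6a3 (1.21, adjusted p = 0.0321) were higher in AGHMT-labelled cells, and each was -0.37 or -0.36 after the GC correction. Col23a1, a membrane collagen named after its values were seen, was unread in GHMT, which makes it at least 1.98-fold higher in AGHMT-labelled cells (adjusted p = 0.0302). Col4a3 (-1.28, adjusted p = 0.0401), Col4a4 (-1.29, adjusted p = 0.0433), Col4a5 (-1.24, adjusted p = 0.0289), Col12a1 (-0.85, adjusted p = 0.0234), Col13a1 (-3.02, adjusted p = 0.014) and Col8a2 (-2.71, adjusted p = 0.0339) were lower in AGHMT-labelled cells. None of these 6 calls held when any single AGHMT library was left out, as 0 chain genes were then called lower. Without AGHMT 3 the values were -0.64, -0.75, -0.56, -0.14, -2.33 and -2.19 in the same order. Col8a2 stood at -1.24 (adjusted p = 0.237) without GHMT 1.

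Both sorted groups had far more fibrillar collagen RNA than CM. The summed fibrillar level was 6596 ± 705 CPM in AGHMT-labelled libraries and 4079 ± 1313 in GHMT, against 608 ± 76.5 in CM. Of the 10 fibrillar genes tested, 7 were higher and 1 lower than CM in AGHMT-labelled cells, and 6 and 1 in GHMT. These are 80% and 70% of the class, beside 48.1% and 58.6% of all genes. The counts that follow cover all classes. In AGHMT-labelled cells against CM, 20 chain genes were higher and 3 lower, or 65.7% of those tested, beside 48.1% of all genes (23.7% higher and 24.4% lower). In GHMT against CM, 18 were higher and 6 lower, or 68.6%, beside 58.6% of all genes (23.8% higher and 34.7% lower). With DESeq2 size factors the first split was 16 and 5, and the second was 25 and 1 after the GC correction and 17 and 10 without mitochondrially encoded genes. The comparisons with E and with CM share the sorted libraries. Calls against CM were stable for Col1a1 (4.96 higher in AGHMT-labelled cells, adjusted p = 1.02e-06, and 4.29 in GHMT, adjusted p = 1.01e-06), Col11a1 (5.61 and 5.59, adjusted p = 5.99e-08 and 3.28e-08), Col12a1 (5.98 and 6.83, adjusted p = 2.69e-08 and 6.78e-09) and Col4a5 (3.57 and 4.80, adjusted p = 1.09e-05 and 5.49e-07) on the log2 scale in edgeR's test. Among the genes lower in the sorted cells, Col4a2 stood at -3.11 (adjusted p = 0.00513) in AGHMT-labelled cells and -3.27 (adjusted p = 0.00379) in GHMT. After the GC correction it stood at -0.34 (adjusted p = 0.314) and 0.48 (adjusted p = 0.183), and without CM 3 the AGHMT value was -1.45 (adjusted p = 0.0535). Col15a1 at -1.61 (adjusted p = 0.0463) in AGHMT-labelled cells lost its call without CM 3 (-1.14, adjusted p = 0.194), among others.

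GC content moved with the fold changes of all genes in the sorted groups. The mean GC of the gene reads was 45 ± 0.306% in AGHMT-labelled libraries, 44.5 ± 0.404% in GHMT, 48 ± 1.78% in CM and 47.3 ± 1.25% in E. Over all tested genes in GHMT against E, the median log2 fold change was 1.20 for genes under 42% GC and -2.84 for those of 58 to 62%, and in AGHMT-labelled cells it was 1.06 and -2.12. In CM against E the same medians were -0.44 and 0.27. Col1a1 at 58.9%, Col4a2 at 60.6%, Col5a3 at 61.6% and Col7a1 at 61.6% lie in the range of 58 to 62%. Col4a3 at 50.4%, Col4a4 at 51.1% and Col4a5 at 51.5% lie in that of 50 to 54%, with medians of -0.73 in AGHMT-labelled cells and -1.81 in GHMT. Col12a1 at 48.3% lies in that of 46 to 50%, with medians of -0.06 and -0.69. Col13a1 at 59.1% rose in both sorted groups although genes of 58 to 62% fell in the median. Whether the relation stems from the libraries or from the cells was not tested.

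**Figure D5:**
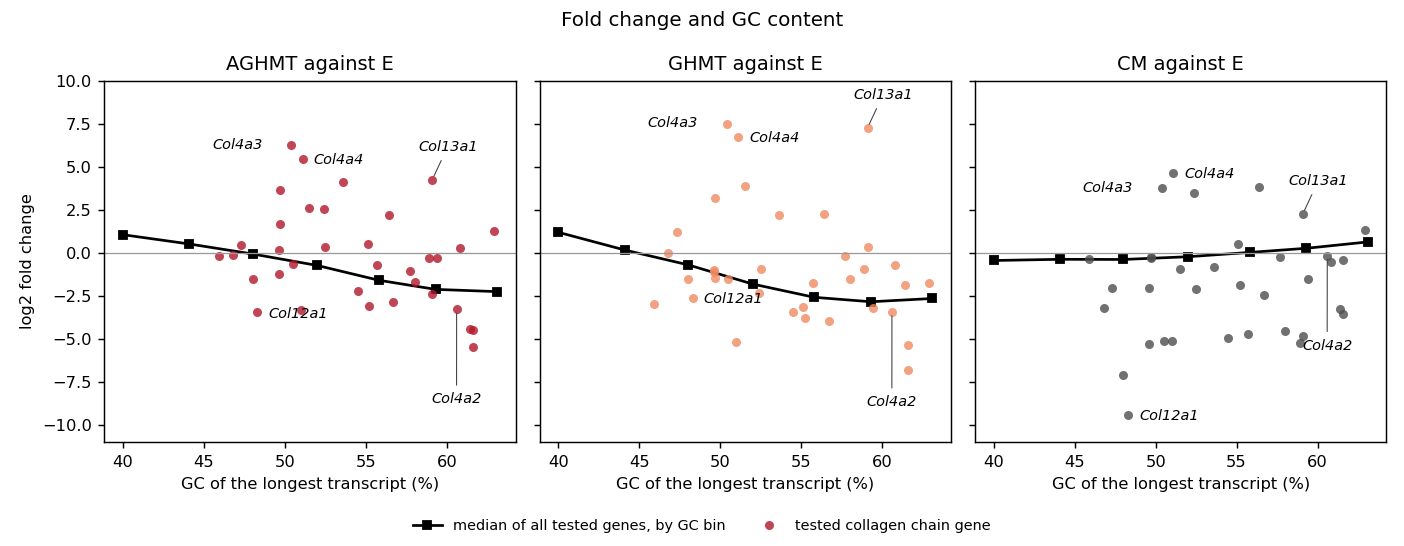
Log2 fold change against the GC content of the longest transcript for the tested chain genes (coloured points) and the median of all tested genes by GC range (black squares). The black line falls from left to right in AGHMT and GHMT, from 1.06 to -2.25 in AGHMT, and goes from -0.44 to 0.64 in CM; Col4a3, Col4a4 and Col13a1 lie far above it.

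Genes that modify, fold and cut the chains were more often called lower than higher against E. Of 32 such genes 31 were tested, and 6 were higher and 15 lower in AGHMT-labelled cells, 4 and 16 in GHMT, and 2 and 18 in CM against E, with medians of -1.12, -1.72 and -1.89. Higher and lower calls are 67.7%, 64.5% and 64.5% of the list, beside 46.5%, 52.6% and 42% of all genes, which also leaned lower, as given above. Serpinh1, the chaperone of the folding triple helix, averaged 549 ± 114 CPM in AGHMT-labelled libraries, 311 ± 199 in GHMT, 223 ± 38.3 in CM and 1473 ± 230 in E. It was lower than E in AGHMT-labelled cells (-1.42, adjusted p = 0.0108), GHMT (-2.24, adjusted p = 6.13e-04) and CM (-2.73, adjusted p = 1.08e-04), with -0.03 (adjusted p = 0.962) in AGHMT-labelled cells and 0.49 (adjusted p = 0.382) in GHMT after the GC correction. The AGHMT call was also lost without AGHMT 1 (adjusted p = 0.0604), AGHMT 3 (adjusted p = 0.0641) or E 1 (adjusted p = 0.0626). Lysyl hydroxylases prepare the sites of cross-links. Plod2 averaged 487 ± 65.1 CPM in AGHMT-labelled libraries and 581 ± 24.5 in GHMT, against 39.5 ± 10.9 in CM and 139 ± 32.4 in E, a rise of 1.80 (adjusted p = 2.43e-04) and 2.06 (adjusted p = 7.26e-05) against E in the sorted groups and a fall in CM (log2 fold change -1.81, adjusted p = 1.32e-04). On total counts its GHMT value was 0.65 (adjusted p = 0.119). Plod1 was lower than E in AGHMT-labelled cells (-3.19, adjusted p = 0.00254) and GHMT (-3.67, adjusted p = 0.00247), and the GHMT value was -1.19 (adjusted p = 0.176) after the GC correction. Plod3 had no read in GHMT and stood at -4.50 (adjusted p = 0.00359) in AGHMT-labelled cells against E.

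Of the prolyl hydroxylases that stabilise the helix, P4ha3 fell in all 3 groups against E, with log2 fold changes of -3.47 (adjusted p = 4.98e-05), -3.72 (adjusted p = 6.05e-05) and -7.45 (adjusted p = 1.33e-07) in AGHMT-labelled cells, GHMT and CM, and -1.23 (adjusted p = 0.127) in GHMT after the GC correction. P3h1, a prolyl 3-hydroxylase, was lower in all 3 (-2.12, -5.32 and -2.42) and higher in AGHMT-labelled cells than in GHMT (3.20, adjusted p = 0.00591), and its AGHMT value against E was -0.54 (adjusted p = 0.233) after the GC correction. Colgalt2, which adds galactose to hydroxylysine, rose in AGHMT-labelled cells (5.10, adjusted p = 5.23e-05), GHMT (4.36, adjusted p = 1.63e-04) and CM (5.78, adjusted p = 1.32e-05), and its GHMT call was lost with limma (2.76, adjusted p = 0.0588) and after thinning to 1 depth (1.03, adjusted p = 0.0632). Tll1, a protease of the carboxyl-terminal propeptide, fell in AGHMT-labelled cells (-4.81, adjusted p = 3.49e-04), GHMT (-3.47, adjusted p = 0.00262) and CM (-5.98, adjusted p = 5.64e-05). In AGHMT-labelled cells against GHMT, 5 of the 31 were higher and 0 lower, with 1 lower at an unadjusted p under 0.05 in edgeR and 0 by DESeq2 or limma.

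Of 10 collagen receptor genes tested, 1 was higher and 3 lower in AGHMT-labelled cells, 0 and 2 in GHMT, and 2 and 5 in CM against E. These are 40%, 20% and 70% of the list, beside 46.5%, 52.6% and 42% of all genes. In GHMT, 1 was higher at an unadjusted p under 0.05 in edgeR, and 0 by DESeq2 or limma. Ddr2, the receptor kinase for fibrillar collagen, averaged 564 ± 63.4 CPM in AGHMT-labelled libraries, 581 ± 60.4 in GHMT, 53.7 ± 22.1 in CM and 632 ± 148 in E. It was lower than E in CM (-3.55, adjusted p = 1.38e-06) and did not pass in AGHMT-labelled cells (-0.16, adjusted p = 0.686) or GHMT (-0.12, adjusted p = 0.754). Itga11, the integrin subunit that binds type I collagen on fibroblasts, fell in AGHMT-labelled cells (-4.92, adjusted p = 9.87e-04), GHMT (-3.41, adjusted p = 0.00915) and CM (-6.11, adjusted p = 2.18e-04), with -0.31 (adjusted p = 0.763) in GHMT after the GC correction and -2.16 (adjusted p = 0.0834) without GHMT 1, CM 3 and E 1, a setting chosen after seeing the data. Mrc2, the receptor that takes up collagen for degradation, fell in AGHMT-labelled cells (-4.34, adjusted p = 0.00394) and GHMT (-5.45, adjusted p = 0.00257). Lair1, an inhibitory receptor of leukocytes, rose in AGHMT-labelled cells (3.45, adjusted p = 8.56e-04) and CM (3.84, adjusted p = 2.79e-04), where macrophage markers were 31.2 to 45.3 and 75.7 to 116 CPM, against 11.2 to 36.5 CPM in E, and their part was not tested.

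The 9 chain genes that did not pass the filter were Col2a1, Col6a4, Col9a1, Col9a2, Col9a3, Col17a1, Col20a1, Col22a1 and Col26a1. Col2a1, the main fibril of cartilage, had 85, 28 and 12 reads in the E libraries and none in the 9 others, which, from reads pooled over each group, places it at least 16.9-fold lower in AGHMT-labelled cells and 9.97-fold lower in CM. Without E 1 these bounds were 10.6 and 6.25-fold, and the E level then lay under the floor of GHMT, so no fold is given for that group. Chondrocyte markers summed to 16.2 to 28.5 CPM in AGHMT-labelled libraries, 26.2 to 29.2 in GHMT, 1.26 to 2.58 in CM and 10.5 to 16.8 in E, and Sox9 alone averaged 21.5, 27.5, 0.958 and 9.14 CPM. The cartilage matrix genes Acan, Hapln1 and Comp averaged less in the other groups than in E. Acan averaged 0.15 CPM in AGHMT-labelled libraries, 0 in GHMT, 0.0573 in CM and 0.701 in E, Hapln1 averaged 0.479, 0.174, 0.59 and 1.48 CPM, and Comp averaged 0.0549, 0.229, 0.33 and 1.18 CPM, while Matn1 had no read in any of the 4 groups. Their part in the Col2a1 values was not tested. Col26a1 had 24 reads in CM and 3 in E, a ratio of 33.4 (exact 95% interval 10.2 to 173, counting error only). The other 7 genes had between 0 and 31 reads per group, and differences among them were not detectable at this depth in GHMT.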

How the data were processed

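Gene read counts were deposited by the authors, 1 table per library, made with Bowtie2 2.0.6 and HTSeq on mm10, per the submitters' processing notes. Its strand setting is not given in the sources used here, nor is the annotation release. RNA came from TRIzol and a stranded TruSeq kit, per the labels. The authors also deposited DESeq-normalised signal, from which whole reads were recovered for 100% of values (tolerance 0.001). For all 44 chain genes they equalled the counts, and the count test on them changed no call of a collagen chain gene.

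Identifiers were matched to GENCODE M21. Counts of all 12 libraries were fitted with edgeR 4.0.16 (filterByExpr with minimum 10 and total 15, TMM scaling, robust quasi-likelihood, prior count 2, Benjamini-Hochberg threshold 0.05), with limma 3.58.1 and DESeq2 1.42.0 as alternatives in R 4.3.3. HTSeq's summary lines, which name no gene, were left out. The GC correction entered as an offset a lowess fit (span 0.3) of each library's log2 deviations on transcript GC. Folds against a group at 0 use a floor of 3 pooled reads. Intervals and floors cover counting error only. Statistics were tested on simulated data with genes changed alike in both sorted groups, so AGHMT against GHMT was not probed. Of genes changed 16-fold, 95% were called in AGHMT against E and 84% in GHMT against E. Of those changed 4-fold, 54% and 52% were called, so a gene that did not pass may still differ. The changed genes were drawn only from those above a set mean level, so these shares do not cover genes of low level. Chain genes were named by the highest mean and the largest changes in each class, and others as stated. Members and lists were chosen with earlier results of these data known. Col4a1 and Col4a2, Col18a1 and Slc19a1, Col10a1 and Nt5dc1, and Col9a3 and Tcfl5 overlap on opposite strands, so their reads may be split uncertainly. Several chain genes also overlap counted genes that code for no protein, some of them on the same strand.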

Additional observations from a re-analysis of the deposited data

How the results depend on the processing

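Of the chain gene values, 210 were the same in direction and call with a prior count of 0.5. The calls could not differ there, since the prior count shrinks the fold changes and does not enter the p-values. The GC correction turned the sign of the following log2 fold changes. Against E in AGHMT-labelled cells they became 1.47 for Col1a1, 0.70 for Col4a1, 0.11 for Col5a1 and 1.74 for Col27a1. Against E in GHMT they became 1.93 for Col1a1, 1.04 for Col1a2, 1.46 for Col3a1, 2.92 for Col4a1, 1.56 for Col5a1, 0.55 for Col5a2, 1.12 for Col8a1, 0.18 for Col14a1, 2.51 for Col18a1, 0.49 for Serpinh1 and 1.81 for Adamts3. In AGHMT-labelled cells against GHMT they became -0.37 for Col1a2, -0.37 for Col3a1, -0.83 for Col4a2, -0.36 for Col6a3, -1.33 for Col11a1 and -0.98 for Itgb1. Against CM they became 1.21 for Col4a1, 1.35 for Col6a1, 2.63 for Col11a2 and 1.39 for P3h3 in AGHMT-labelled cells, and 0.48 for Col4a2, 1.58 for Col6a1, 1.23 for Col6a2, 1.68 for Col15a1 and 3.60 for Col18a1 in GHMT. Leaving out 1 library at a time, GHMT values ran from -2.04 to 3.87 for Col6a5 against E, and against CM from -1.83 to 4.16 for Col6a5, 0.00 to 4.02 for Col19a1 and -0.22 to 3.04 for Tll1, with the lowest without GHMT 3 for the collagen genes and without GHMT 2 for Tll1. Leaving out GHMT 1, CM 3 and E 1 together, a setting chosen after seeing the data, turned Col18a1 in GHMT against CM to 2.07. The cause was not tested.

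Thinning to 1 depth left 20 chain genes tested, with 16 called in GHMT against E, 6 in AGHMT-labelled cells against GHMT and 13 in CM against E, and left 5 receptors, with 1, 1, 0, 2 and 3 called in AGHMT against E, GHMT against E, AGHMT against GHMT, CM against E and GHMT against CM. The GC correction gave 7, 4, 7 and 8 receptors in AGHMT against E, GHMT against E, AGHMT against GHMT and AGHMT against CM, and 11 and 20 biosynthesis genes in AGHMT against GHMT and AGHMT against CM. Total counts gave 6 receptors in GHMT against E. Some settings tested fewer genes than the 31 and 10 of the main fit. Fits of only the 2 groups gave 3 of 28 and 9 of 25 biosynthesis genes tested in AGHMT against GHMT and GHMT against CM. They gave 1 of 7, 5 of 9 and 4 of 6 receptors tested in AGHMT against GHMT, AGHMT against CM and GHMT against CM. Limma gave 1, 4 and 4 of 9 receptors tested in AGHMT against GHMT, CM against E and GHMT against CM. It gave 8 of 26 biosynthesis genes tested in AGHMT against CM. Recovered reads, also chosen after seeing the data, gave 3 of 26 biosynthesis genes tested in AGHMT against GHMT. Replicate numbers did not pair the libraries (2 of 18 correlations above 0.1), and a replicate block gave 4 chain, 3 biosynthesis and 0 receptor genes in AGHMT against GHMT. The summed level was 6740 CPM in AGHMT with DESeq2 size factors, and 4766 in GHMT and 27980 in E on total counts.

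Leaving out 1 library gave 20 to 25 chain genes called in AGHMT against E, 21 to 25 in GHMT against E, 3 to 13 in AGHMT against GHMT, 20 to 29 in CM against E, 19 to 25 in AGHMT against CM and 22 to 27 in GHMT against CM. Biosynthesis genes ran from 14 to 23, 18 to 23, 3 to 10, 17 to 23, 11 to 15 and 15 to 19 in the same order, and receptors from 3 to 4, 2 to 4, 0 to 2, 5 to 7, 3 to 4 and 5 to 8. Summed levels ran from 7966 to 8619 CPM in AGHMT, 6123 to 7360 in GHMT, 1047 to 1620 in CM and 14460 to 16548 in E. The shallow GHMT libraries limit every statement on genes under 0.725 CPM.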
